A study of Mus musculus with 2 samples.

Results

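The 10 genes described here encode the constant parts of antibodies and the chain that joins antibodies into polymers. They are the heavy chain constant genes Ighm, Ighg1, Ighg2b, Ighg2c, Ighg3 and Igha, the light chain constant genes Igkc, Iglc1 and Iglc2, and Jchain. They were picked by symbol, through the GENCODE M21 names of their Ensembl identifiers, and all 10 were found among the 55536 genes of the table. The RNA came from mammary tumors of MMTV-PyVT mice, in which the mouse mammary tumor virus promoter drives the polyoma middle T antigen in mammary epithelium. Once the ducts showed hyperplasia, mice received either dimethyl sulfoxide (DMSO), the control, or cyanidin-3-glucoside (C3G), an anthocyanin pigment of berries. Tumors were collected at a preset tumor burden. Each group had 1 library, so no value below has a replicate, no test was possible, and a difference between the treatments cannot be told apart from a difference between individual tumors. The age, sex and strain background of the mice and the dose are not stated in the labels. They also leave unsaid whether a library held 1 tumor or several, and each library is called a tumor below.

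A B cell joins a V segment, for heavy chains also a D segment, and a J segment, and splices them to a constant gene. IgM, from Ighm, is the first class made, and class switching later places IgG, IgE or IgA constant exons behind the same V region. Each antibody carries either a kappa or a lambda light chain, and in mice kappa chains predominate. Plasma cells secrete large amounts of antibody, J chain links IgA and IgM into polymers, and the polymeric immunoglobulin receptor Pigr of gland epithelium carries these polymers into milk and other secretions. In whole tumor tissue, fewer cells of a type and less RNA per cell cannot be told apart.

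The heavy chain constant genes lie in a row on the minus strand of chromosome 12 (build mm10), from Ighm (113418558 to 113422730) through Ighg3 (113356224 to 113361232), Ighg1 (113325240 to 113330523), Ighg2b (113302965 to 113307933) and Ighg2c (113285325 to 113288932) to Igha (113254830 to 113260236). Igkc is a single exon on the plus strand of chromosome 6 (70726435 to 70726966). Iglc1 (19061618 to 19062071) and Iglc2 (19198396 to 19200351) are on the minus strand of chromosome 16, and Jchain is on the minus strand of chromosome 5 (88519809 to 88527891). The sequences that follow open the first constant exon of the 3 genes with the most reads, in coding direction 5′ to 3′, from the GENCODE M21 transcripts. The exon of Ighm has 315 coding bases, that of Igha 303 and that of Igkc 320. Only their first 90 bases are printed.
Ighm, chr12:113422641-113422730, minus strand: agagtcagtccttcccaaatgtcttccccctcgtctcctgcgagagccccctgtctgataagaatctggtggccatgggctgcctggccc
Igha, chr12:113260147-113260236, minus strand: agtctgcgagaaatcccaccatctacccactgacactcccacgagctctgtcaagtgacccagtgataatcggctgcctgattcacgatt
Igkc, chr6:70726435-70726524, plus strand: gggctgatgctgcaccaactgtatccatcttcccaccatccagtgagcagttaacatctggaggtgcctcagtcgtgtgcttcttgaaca
None of the 50-base words in the annotated transcripts of Ighm, Igha or Igkc occurred in a transcript of another gene, on either strand. Reads of that length that match these transcripts exactly can therefore be assigned to 1 gene.

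The 4 IgG genes are close relatives, and their openings are shown because reads could be split among them. Capitals mark bases that differ from Ighg2b in an alignment of the whole exon, which has 291 coding bases in each gene.
Ighg2b, chr12:113307844-113307933, minus strand: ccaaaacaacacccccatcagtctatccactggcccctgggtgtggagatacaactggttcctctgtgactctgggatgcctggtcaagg
Ighg2c, chr12:113288843-113288932, minus strand: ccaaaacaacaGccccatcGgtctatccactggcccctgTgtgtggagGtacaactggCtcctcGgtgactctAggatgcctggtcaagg
Ighg1, chr12:113330434-113330523, minus strand: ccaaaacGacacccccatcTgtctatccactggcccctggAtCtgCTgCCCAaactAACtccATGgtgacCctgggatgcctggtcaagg
Ighg3, chr12:113361143-113361232, minus strand: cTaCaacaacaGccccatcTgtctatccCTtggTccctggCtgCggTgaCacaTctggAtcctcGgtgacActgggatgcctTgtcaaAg
Over the whole exon Ighg2b was 87.6% identical to Ighg2c, 88.3% to Ighg1 and 78.7% to Ighg3. Of the 50-base words of Ighg2c, 5.5% were shared with another gene, against 4.1% for Ighg2b, 1.6% for Ighg3 and 0.4% for Ighg1. No 100-base word was shared. The read length and the strain are not stated in the labels, and the rule for reads that fit several genes is not given. The split of reads among these genes is therefore uncertain. The shares above cover only exact matches between annotated transcripts and set no limit to that uncertainty.

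The lambda genes are shown for the same reason, together with Iglc3, which is not one of the 10. Capitals mark bases that differ from Iglc2 or have no partner in it.
Iglc2, chr16:19198764-19198853, minus strand: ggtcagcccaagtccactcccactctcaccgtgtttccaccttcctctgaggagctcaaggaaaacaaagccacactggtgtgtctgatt
Iglc3, chr16:19065592-19065681, minus strand: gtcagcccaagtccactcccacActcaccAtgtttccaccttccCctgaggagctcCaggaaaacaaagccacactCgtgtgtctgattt
Iglc1, chr16:19061982-19062071, minus strand: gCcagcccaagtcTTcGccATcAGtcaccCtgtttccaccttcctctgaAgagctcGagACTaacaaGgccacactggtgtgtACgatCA
Iglc2 and Iglc3 were 96.2% identical over this exon, and 7.7% of the 50-base words of Iglc2 were shared with Iglc3. Iglc1 was 73.4% identical to Iglc2 and shared no 50-base word with any gene. Among the 10 genes, an exon of another annotated gene overlapped only Iglc2, where the segment Iglj2, which had no read, covered 38 of 612 exon bases.

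Levels are given in TPM, which is scaled by gene length, and reads are those recovered from the TPM values (12192275 with DMSO, 16081110 with C3G). The 10 genes together held 737 reads in the DMSO tumor (0.00604% of all) and 577 in the C3G tumor (0.00359%). Intervals are at the 95% level and cover counting error only. Epithelial markers showed mammary epithelium in both libraries, with Epcam at 1484 and 1399 TPM and Krt18 at 2824 and 1769 TPM. The log2 ratio is log2((C3G TPM + 1)/(DMSO TPM + 1)). A size of 1 or more in this ratio, in a gene that reached 5 TPM in either library, counted as a call. This scale understates the change of low genes. By this rule 4.30% of 12780 genes were called lower in the C3G tumor (550 genes) and 3.10% higher (396 genes). After centring on genes with a mean of at least 10 TPM, 663 were called lower and 298 higher.

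Antibody constant transcripts were mostly lower in the C3G tumor, slightly for Ighm and by 5.47-fold for Igkc. Of the 10 genes, 9 had a log2 ratio below 0, while Ighg3 had one above 0. The median of the 10, with no filter on level, was -0.99. The 7 with a mean of at least 1 TPM were all below 0, with a median of -1.04. Over all 17468 genes at that level the median was 0.10, and 41.1% were below 0. Only Ighm, Igha and Igkc reached 5 TPM in either library, and of these 3 Igkc and Igha were called lower and none higher. The other 7 genes were too low for a call in either direction.

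**Figure D1:**
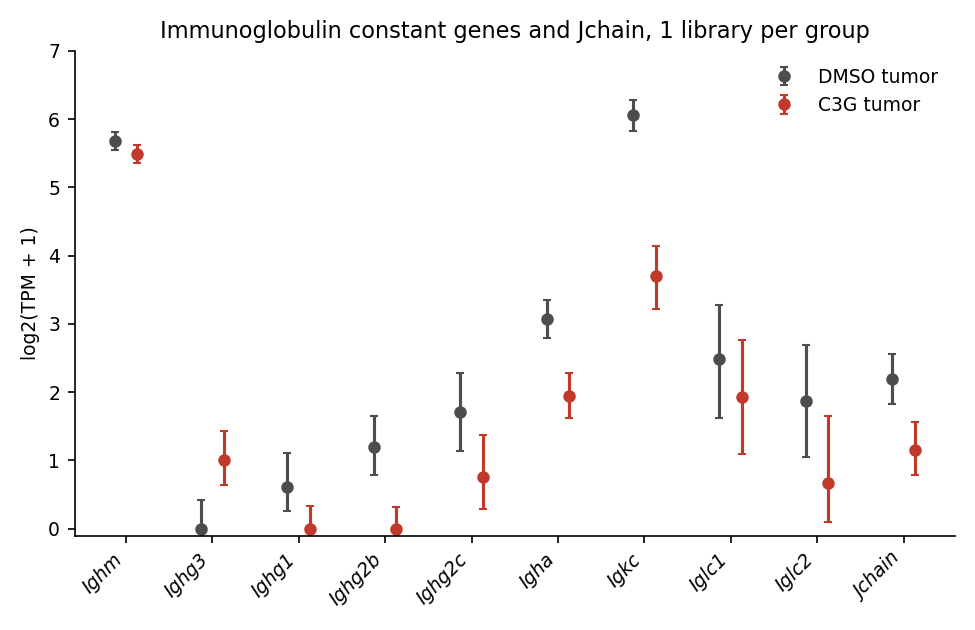
Level of each gene in the DMSO and C3G tumor as log2(TPM + 1), with heavy chain genes in chromosomal order, then light chain genes and Jchain; bars are exact Poisson 95% intervals of the reads. The bars of Igkc, Igha, Jchain, Ighg2b and Ighg3 do not overlap between the tumors, whereas those of Ighm, Ighg1, Ighg2c, Iglc1 and Iglc2 do. For Ighm they span 45.5 to 55.4 TPM with DMSO and 40.0 to 48.1 TPM with C3G. The bars cover counting error only. The share of all genes with bars apart was not counted, so bars apart cannot be read as particular to these genes.

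Ighm was the heavy chain gene with the highest level in both tumors. It stood at 50.3 TPM (411 reads) with DMSO against 43.9 TPM (455 reads) under C3G, 1.15-fold lower with an interval of 0.999 to 1.31. That interval reaches no difference, and its log2 ratio of -0.19 is small beside the size required for a call. Ighd, the IgD gene spliced from the same transcript as Ighm in naive B cells, was far below it, at 1.34 and 0.862 TPM (11 and 9 reads). The ratio of Ighd to Ighm was 0.0266 with DMSO, against 0.0196 with C3G.

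Igha, the constant gene of the IgA class that dominates mucosal and milk antibody, stood at 7.43 TPM (86 reads) with DMSO against 2.86 TPM (42 reads) under C3G. It was 2.59-fold lower (1.77 to 3.85) and was called lower by size, although with a pseudocount of 5 its log2 ratio was -0.66 and it was no longer called. Jchain stood at 3.57 TPM (39 reads) and 1.23 TPM (17 reads), 2.91-fold lower (1.61 to 5.48). The ratio of Jchain to Igha in TPM was 0.481 with DMSO and 0.429 with C3G, and the intervals of the 2 folds overlap.

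The IgG genes were at low levels and differed among themselves in which tumor held their reads. Ighg2b had 15 reads (1.29 TPM) with DMSO but 0 with C3G, where 3 reads, the floor set by a count of 0, would be 0.204 TPM. Its level with DMSO was 6.34 times that floor, a ratio that leaves out the counting error of its 15 reads. Ighg1 had 6 reads (0.534 TPM) and 0, with the DMSO level 2.53 times its C3G floor. Its intervals overlap, at 0.196 to 1.16 TPM with DMSO and 0 to 0.259 TPM with C3G. Ighg2c, an IgG2 gene that some mouse strains carry in place of Ighg2a, had 13 reads (2.26 TPM) and 5 reads (0.686 TPM), 3.30-fold lower (1.10 to 11.8). Ighg3 went the opposite way, with 0 reads under DMSO but 14 reads (1.01 TPM) under C3G, 3.68 times its DMSO floor of 0.276 TPM. None of these 4 genes reached 3 TPM. Summed over the class, IgG stood at 4.09 TPM (34 reads) with DMSO against 1.70 TPM (19 reads) under C3G. In RPM, the reads of a gene scaled to its library's total, the sum was 2.36-fold lower (1.31 to 4.38). Levels per length among these genes depend on their annotated 3′ ends, since the exons of Ighg2c cover 1326 bases and those of the other 3 genes 2512 to 2678. Ighe, the IgE gene, had no read in either tumor.

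Ighm made up more of the heavy chain transcripts in the C3G tumor than in the DMSO tumor. Ighm took 79.6% of the summed TPM of 8 heavy chain constant genes with DMSO and 89.0% with C3G. In reads these shares were 75.8% (411 of 542, Wilson interval 72.1 to 79.2%) and 86.7% (455 of 525, 83.5 to 89.3%), which do not overlap. Igha took 11.8% and 5.81% of the TPM, or 15.9% (13.0 to 19.2%) and 8.0% (5.97 to 10.6%) of the reads. IgG took 6.47% and 3.45% of the TPM, or 6.27% (4.52 to 8.64%) and 3.62% (2.33 to 5.58%) of the reads, intervals that overlap. Among class-switched transcripts alone, Igha held 64.5% of the TPM with DMSO and 62.8% with C3G. Switched transcripts together stood at 11.5 TPM (120 reads) and 4.57 TPM (61 reads), 2.60-fold lower in RPM (1.89 to 3.59).

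**Figure D2:**
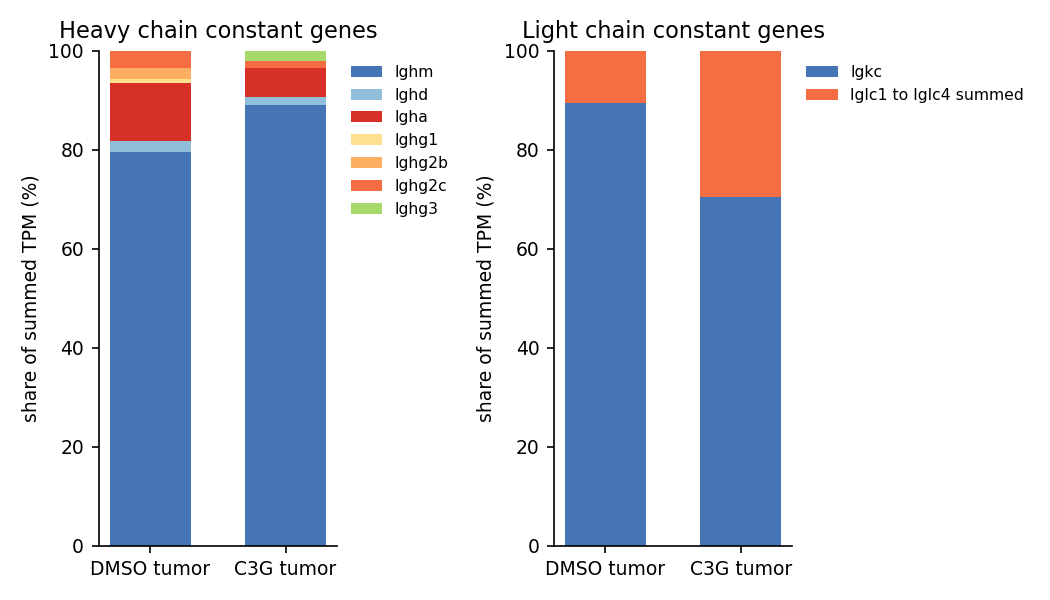
Share of the summed TPM held by each heavy chain constant gene (left) and by kappa and lambda light chain constant genes (right) in the DMSO and the C3G tumor; each bar totals 100%. Ighm holds 79.6% and 89.0% of the heavy chain sum, and lambda 10.5% and 29.5% of the light chain sum.

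The kappa constant gene Igkc had the largest difference of the called genes. It stood at 65.5 TPM (151 reads) with DMSO, the highest level of the 10 genes in that tumor, and at 12.0 TPM (35 reads) with C3G, where it ranked below Ighm. It was 5.47-fold lower (3.76 to 8.14), an interval that lies wholly above that of Ighm. In log2 its ratio was -2.36, and it ranged from -2.48 to -2.05 over all alternatives run on it. The 5 coding or antigen receptor constant genes nearest to Igkc in level in both libraries were Gm11273, Fam25c, Scgb2b26, Gm4951 and Npy, at distances of 0.34 to 0.63 on the log2(TPM + 1) scale, a likeness that rests on only 2 libraries.

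Lambda genes rested on few reads. Iglc1 stood at 4.57 TPM (9 reads) with DMSO against 2.81 TPM (7 reads) under C3G, 1.63-fold lower (0.540 to 5.15). Iglc2 had 7 reads (2.64 TPM) and 2 reads (0.595 TPM), a ratio of 4.44 (0.845 to 43.8), while its near-identical relative Iglc3 had 1 and 4 reads. Both intervals reach no difference. Summed over Iglc1, Iglc2, Iglc3 and Iglc4, lambda stood at 7.72 and 5.01 TPM (17 and 13 reads). The lambda share of light chain reads was 10.1% (17 of 168, Wilson interval 6.41 to 15.6%) with DMSO and 27.1% (13 of 48, 16.6 to 41.0%) with C3G. With Iglc1 and Iglc2 alone the shares of light chain TPM were 9.92% and 22.1%. Their shares of light chain reads were 9.58% (16 of 167) with DMSO and 20.45% (9 of 44) with C3G. The Wilson intervals of these read shares overlap, whereas those with Iglc3 and Iglc4 included do not.

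Light chains and heavy chains were out of step between the tumors. Summed light chain constant TPM was 73.2 with DMSO and 17.0 with C3G, 4.31-fold lower, while summed heavy chain constant TPM was 63.1 and 49.3, 1.28-fold lower. The light to heavy ratio was 1.16 (0.969 to 1.38) with DMSO, against 0.344 (0.251 to 0.463) with C3G. With Ighm and Ighd left out of the heavy chain sum, the ratio was 6.35 and 3.72 (168 light over 120 heavy reads, and 48 over 61). The light chain sum was unchanged, so light chains made together with IgM stayed in it. No interval was computed for this ratio. Igkc stood at 8.80 times the level of Igha with DMSO and 4.18 times with C3G.

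**Figure D3:**
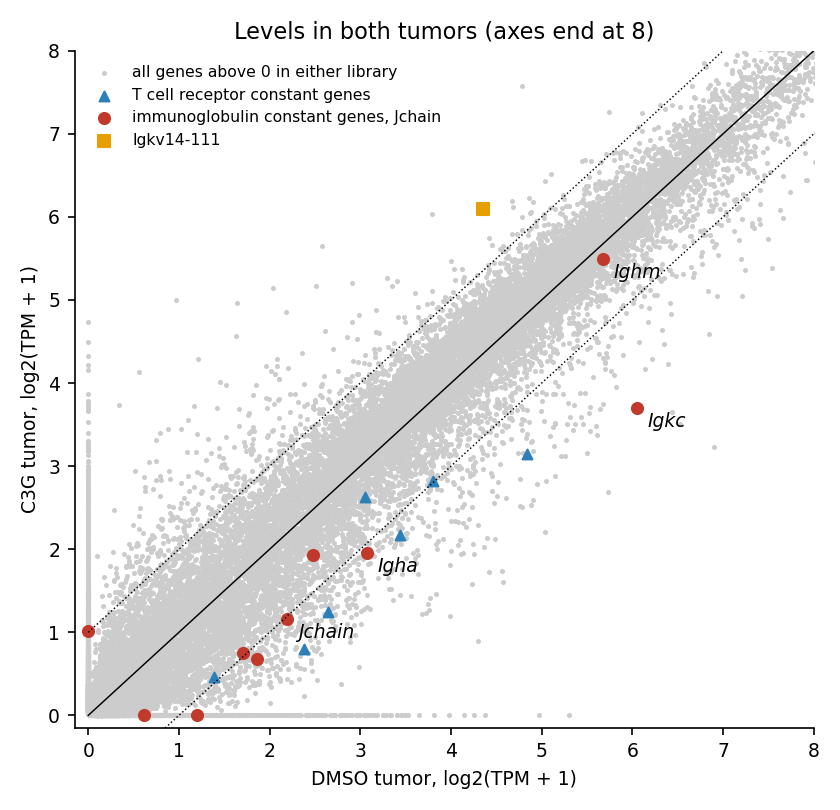
Level of every gene above 0 in either library as log2(TPM + 1), DMSO tumor on the horizontal and C3G tumor on the vertical axis; the solid line marks equal levels and the dotted lines a log2 difference of 1. Igkc, at 65.5 and 12.0 TPM, lies well below the lower dotted line and Ighm near the solid line, while the V segment Igkv14-111 lies above the upper dotted line.

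V segments, which supply the antigen-binding part of the chains, have their own entries in the table and were not used to pick the 10 genes. Few of their reads were counted. Without Igkv14-111, described below, the other 215 V segments had 19 reads in each tumor, 0.758 times as many in RPM with C3G (0.3799 to 1.51), an interval that reaches no difference. Of 113 heavy chain V segments, 5 had a read in the DMSO tumor, against 1 with C3G, for 5 and 2 reads in all, beside 542 and 525 reads in heavy chain constant genes. The most abundant were Ighv6-3 (0.648 TPM), Ighv2-9-1 (0.625 TPM) and Ighv10-3 (0.612 TPM) with DMSO, and Ighv6-3 was the only one with a read in the C3G tumor (1.02 TPM). Of 3 lambda V segments, Iglv1 had 1 and 3 reads and Iglv3 0 and 2 reads.

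The kappa V segments summed to 27.7 TPM (44 reads) with DMSO against 73.2 TPM (148 reads) under C3G, higher in the tumor where Igkc was lower. Most of that sum came from 1 segment, Igkv14-111 (chromosome 6, 68256389 to 68256869), at 19.4 TPM (31 reads) and 67.3 TPM (136 reads). It was 3.46-fold higher in the C3G tumor (2.33 to 5.29) and took 70.5% of kappa V reads with DMSO and 91.9% with C3G. It shared no 50-base word with another transcript. In the C3G tumor it held more reads than Igkc, 136 against 35, although a full kappa transcript contains both. The other 99 kappa V segments held 13 reads in the DMSO tumor, against 12 with C3G, 8.23 and 5.90 TPM. Among them Igkv8-27 (2.56 TPM) and Igkv4-58 (2.58 TPM) were highest with DMSO, and Igkv6-17 (0.965 TPM) and Igkv4-70 (0.960 TPM) with C3G. The labels do not say how reads that fit several V segments were counted.

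**Figure D4:**
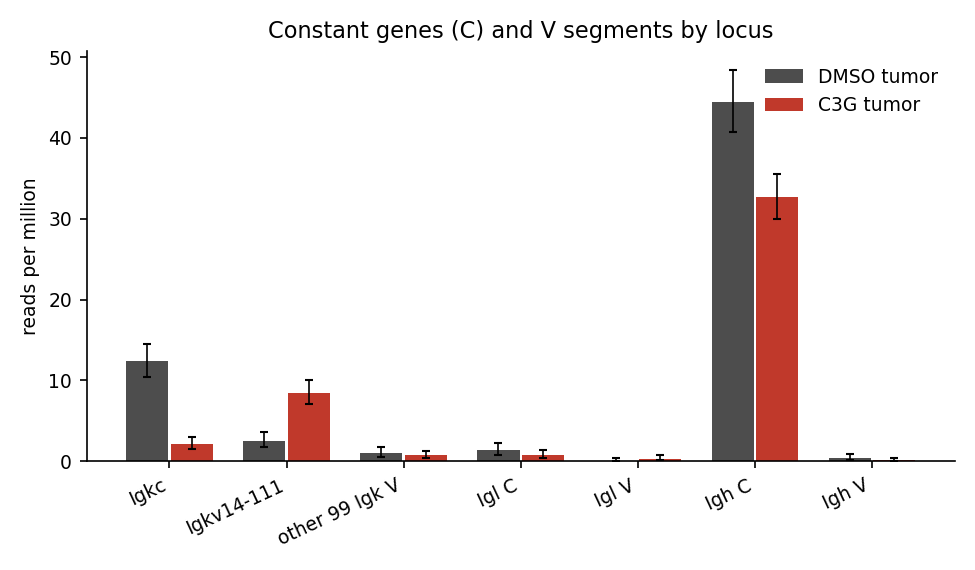
RPM (reads scaled to the library total) of constant genes (C) and V segments of the kappa, lambda and heavy chain loci in the DMSO and C3G tumor, with exact Poisson 95% intervals. Igkc stands at 12.4 and 2.18 RPM and Igkv14-111 at 2.54 and 8.46, while the other 99 kappa V segments stand at 1.07 and 0.746.

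Several defining B cell genes were at or near 0 in both tumors. The B cell surface gene Ms4a1 had 0 reads with DMSO and 1 with C3G, and the B cell receptor partner Cd79a had 3 in each, beside 411 and 455 reads of Ighm. Of 15 listed B cell genes, 4 had no read in the DMSO tumor (Ms4a1, Cr2, Fcer2a and Fcrla). Among other B lineage genes of the list, which were named after their values were seen, Pax5 had 14 and 4 reads, 4.44-fold lower with C3G (1.39 to 18.5), and Bank1 had 29 and 14 reads, 2.63-fold lower (1.34 to 5.38). Cd22 had 16 and 37 reads, 1.82-fold higher (0.990 to 3.51), an interval that reaches no difference. The 5 with a mean of at least 1 TPM had a median log2 ratio of -0.39, with 3 below 0. Cd72, a B cell receptor inhibitor that macrophages can also express, stood at 17.9 and 6.97 TPM, 2.57-fold lower (2.08 to 3.20), and was the only one called. Cd79b, the signalling partner of Cd79a, stood at 2.90 and 1.78 TPM and Cd37 at 4.72 and 3.36 TPM. Blnk, an adaptor found in B cells and in myeloid cells, stood at 44.97 and 50.6 TPM. The source of the Ighm reads was not tested.

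Most listed plasma cell genes had log2 ratios above 0, as did most genes of the table, whereas most constant genes were below 0. Of 14 listed, 11 had a mean of at least 1 TPM, 9 of these were above 0 and the median was 0.34. At that level 10288 of all 17468 genes were above 0, with a median of 0.10. Whether plasma cells were the source of these transcripts was not tested. Pou2af1, a coactivator of immunoglobulin gene transcription, was the only one called, at 6.79 TPM with DMSO against 2.36 TPM under C3G, 2.88-fold lower (1.89 to 4.48). The secretory pathway regulator Xbp1 stood at 841 and 1503 TPM, its reticulum partner Derl3 at 32.5 and 55.3 TPM and the transcription factor Prdm1 at 4.26 and 6.20 TPM, and all 3 are also used by other secretory or epithelial cells. The more restricted plasma cell genes Mzb1 and Tnfrsf17, named after their values were seen, had 1 and 0 reads with DMSO and 5 and 3 reads with C3G.

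Of 9 genes for class switching and the cytokines that direct it, only 4 were high enough for a call. None of these was called, beside 4.30% of all genes called lower and 3.10% higher. Il21, a helper T cell cytokine, had no read in either tumor. Ifng, which favours the IgG2 classes, had 6 reads with DMSO and 0 with C3G (1.07 TPM and listed at 0). Il4, which favours IgG1 and IgE, stood at 10.7 and 7.27 TPM, Tgfb1, which favours IgA, at 26.5 and 20.8 TPM, and the repair enzymes Ung and Apex1 at 7.04 against 8.65 and 19.95 against 26.9 TPM. The median of the 5 genes with a mean of at least 1 TPM was 0.20.

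Genes for survival and homing of B lineage cells went both ways, with 5 of 9 above 0 and a median of 0.17. Cxcr4, a receptor that guides plasma cells and many other cells, was called higher at 68.1 and 151 TPM, 2.22-fold (2.01 to 2.46). Cxcl13, which draws B cells into follicles, stood at 3.81 and 0.949 TPM (19 and 6 reads), 4.01-fold lower (1.54 to 12.3). The B cell survival factor Tnfsf13b stood at 3.26 and 1.64 TPM. Il6, which supports plasma cells among many roles, stood at 0.760 and 4.12 TPM, 5.42-fold higher (2.57 to 13.2). Ccl28, which draws IgA plasma cells to the mammary gland, had 5 reads with DMSO and 0 with C3G. Its DMSO level was 2.11 times the floor of 3 reads in the C3G tumor.

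Of 10 receptors and carriers of antibody, 8 were high enough for a call. None was called, beside 4.30% of all genes called lower and 3.10% higher, so few calls would be found among any 8 genes. Pigr stood at 257 and 194 TPM, 1.32-fold lower (1.27 to 1.38). Fcer1g, the signalling chain shared by Fc receptors, stood at 206 and 123 TPM, and Fcgr4, a mouse receptor for IgG2 classes, at 23.3 and 11.4 TPM, 2.04-fold lower (1.53 to 2.73). Trim21, an intracellular antibody receptor, stood at 27.8 and 31.7 TPM. Of the 9 with a mean of at least 1 TPM, 7 were below 0, with a median of -0.07.

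**Figure D5:**
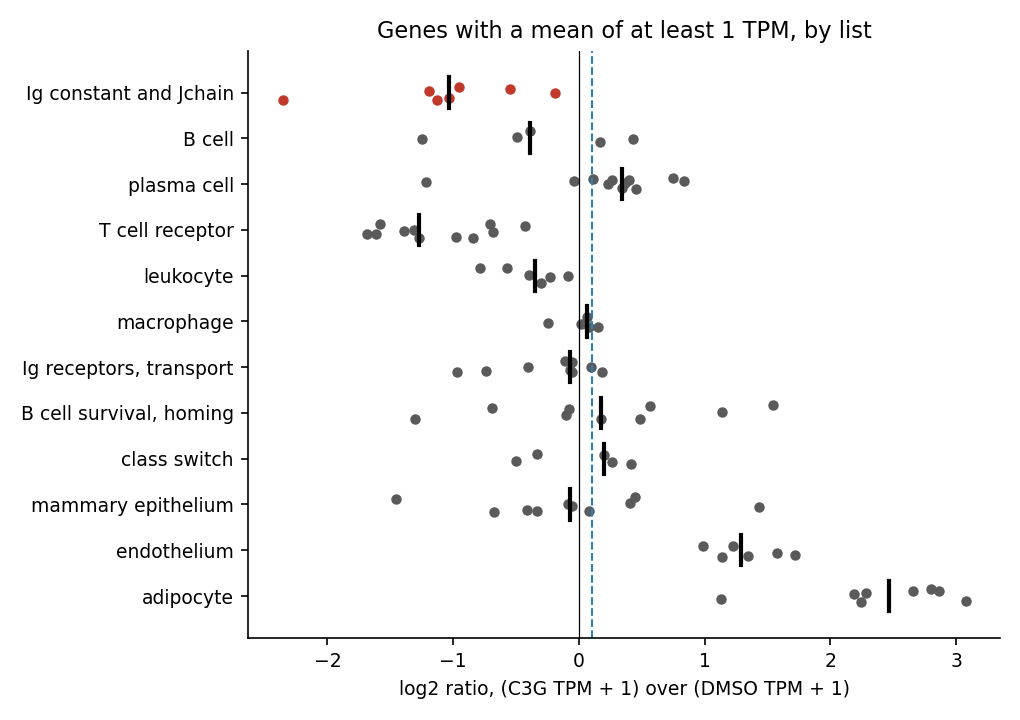
Log2 ratio of C3G over DMSO for each gene with a mean of at least 1 TPM, by list; black bars are list medians, and the dashed line is the median of 17468 genes (0.10). The antibody genes (7 of 10 reach this level) and the T cell receptor genes lie to the left, with Igkc farthest at -2.36, and the endothelial and fat cell genes to the right.

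Markers of other cells differed between the same libraries, and their part in the antibody values was not tested. T cell receptor genes were lower in the C3G tumor, with all 11 measured of 14 listed below 0, a median of -1.27 and a sum of 86.7 against 31.3 TPM. Trbc2 was 3.51-fold lower (2.28 to 5.52), Trac 2.82-fold (1.58 to 5.22) and Tcrg-C1 3.802-fold (1.56 to 10.6). These 3 were called of 5 high enough for a call, beside 4.30% of all genes called lower. Cd8a stood at 2.98 and 0.300 TPM, and Tcrg-C4 at 4.21 and 0.739 TPM. The fold of Igkc has an interval that overlaps those of Trbc2, Trac and Tcrg-C1. General leukocyte genes were below 0 in all 6 cases, with a median of -0.35 and no call, with Rac2 at 20.4 and 11.4 TPM, Laptm5 at 54.8 and 36.6 TPM, Cd52 at 78.3 and 59.2 TPM and Coro1a at 45.6 and 36.9 TPM. Macrophage genes had a median of 0.06, or -0.06 after centring, with Lyz2 at 726 and 758 TPM, Cd14 at 278 and 295 TPM, Cd68 at 73.6 and 81.9 TPM and Csf1r at 31.3 and 26.2 TPM. Lymph node genes, listed because the mammary fat pad holds a node, summed to 9.28 and 4.005 TPM over 8 genes. Much of that difference lay in Cxcl13 (3.81 and 0.949 TPM). The 3 with a mean of at least 1 TPM had a median of -0.28. Cr2 and Fcer2a were at 0 with DMSO (2 and 1 reads with C3G). Ccl21a and Madcam1 were at 0 with C3G (5 and 2 reads with DMSO). Ccr7, also on this list, stood at 2.22 and 1.66 TPM. Fat cell genes were higher with C3G, with a median of 2.47 and a sum of 230.1 against 1354 TPM. Of 8 listed, 7 were high enough for a call and all 7 were called, beside 3.10% of all genes called higher. The called ones were Retn (4.97 and 49.3 TPM), Car3 (49.2 and 365 TPM), Fabp4 (26.5 and 190.0 TPM), Cidec (4.72 and 35.0 TPM), Adipoq, Plin1 and Cfd. Endothelial genes were higher too, with a median of 1.29 and a sum of 23.5 against 68.1 TPM. Of 6 listed, 5 were called, beside the same 3.10%. They were Cldn5 (2.93 and 11.9 TPM), Tie1 (2.30 and 8.81 TPM), Pecam1 (6.55 and 18.2 TPM), Tek (1.86 and 5.68 TPM) and Cdh5. The 10 mammary epithelial genes had a median of -0.07, with Krt19 called lower (678 and 246 TPM) and Wap higher (24.7 and 68.4 TPM), while Lalba stood at 4909 and 6700 TPM.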

How the data were processed

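RNA from mammary tumors was sequenced in 2 libraries, 1 per group. The deposited values are TPM, with 1 column per library summing to 1000000, named by the sample titles per the file headers. Per the submitters' processing notes, reads were handled with Trimmomatic 0.38, featureCounts 2.0.0, FastQC and MultiQC, on build mm10. The aligner, the strand setting and the rule for multi-mapping reads are not given in the sources used here. Per the labels' protocols the library kit was TruSeq RNA version 2, which does not mark strand.

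All 55536 identifiers matched GENCODE M21, which gave symbols, positions and exon-union lengths. In each library the products of TPM and length came in whole steps for 100% of values above 0 (tolerance 0.01 of a step), and 1 step was taken as 1 read or read pair. Recovered reads served for intervals and read shares, not for a test. No p-value was computed with 1 library per group. Folds are ratios of TPM with exact conditional intervals, and shares have Wilson intervals. Since the reads carry no molecular identifiers, intervals and the floor of 3 reads cover counting error only.

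The 10 genes, the gene lists and the rules were chosen with earlier results of these data known. From each list, up to 4 genes with the largest log2 ratio in size and at least 2 TPM were named, with any called gene, the 3 most abundant V segments per locus and library, and the 5 genes nearest to Igkc. Further names (Ighd, Ighe, Iglc3, the B cell genes at or near 0, Mzb1, Tnfrsf17, Il21, Ifng, Ccl28, Epcam) were added because of their role or their values. Some genes on the lists are not reported here. The T cell receptor gamma genes were matched under their M21 symbols. Where identifiers shared a symbol, the more abundant was used. Shared words were searched in all GENCODE transcripts, not only the constant loci. Alternatives were other pseudocounts, filters, scalings, centring and a length correction. Calls and intervals were also run on simulated Poisson counts with planted changes, scored only in genes with a mean of at least 10 TPM. Those counts hold no variation between tumors. They therefore cannot show how calls and intervals behave under such variation or in lower genes. Work was done in Python 3.11.15 with scipy 1.17.1, pandas 2.3.3 and Biopython 1.88.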

Additional observations from a re-analysis of the deposited data

How the results depend on the processing

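Igkc had a log2 ratio between -2.48 and -2.05 under all 6 other scalings and pseudocounts and was called lower under each. Of 60 such values over the 10 genes, 46 stayed inside the counting interval of the main value and none changed sign. The number of the 10 genes called lower was 2 of 3 that could be called. It was 1 of 3 with a pseudocount of 5 and 1 of 2 with a minimum of 20 TPM. It was 3 of 5 after rescaling without mitochondrial genes and the 50 most abundant, and 5 of 10 without a filter on low values. The number called higher was 0, or 1 without that filter. Over all genes, 550 were called lower and 396 higher of 12780 that could be called. These counts were 309 and 179 of 12780 with a pseudocount of 5, and 311 and 190 of 12252 with CPM of recovered reads. With a minimum of 20 TPM they were 241 and 109 of 7189, and with at least 50 reads 312 and 218 of 11909. After the rescaling they were 747 and 566 of 14067, and with no filter 1218 and 1086 of 55536. As shares of reads in place of TPM, Ighm took 75.8% of heavy chain transcripts with DMSO, and Igha 15.9% with DMSO and 8.0% with C3G. The light to heavy ratio was 0.310 with DMSO and 0.0914 with C3G in reads. It was 6.35 and 3.72 in TPM with Ighm and Ighd left out of the heavy chain sum only. The kappa V segment sum, 2.65 times as high with C3G, was 0.717 times as high without Igkv14-111, an alternative chosen after seeing the data. Of 103 list medians under alternatives, 95 stayed between the medians of their genes' counting bounds and the macrophage median changed sign, to -0.057 after centring, which shifted all log2 ratios by 0.12. No paired analysis was possible because each group had 1 library. At 50 or more reads over both libraries, 4 of the 10 genes were measured, so the IgG and lambda values are limited by depth.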
